A study of Homo sapiens with 12 samples.

Results

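The mRNA levels of 36 aminoacyl-tRNA synthetase genes were followed in human induced pluripotent stem cells (iPSCs) cultured under 4 conditions. The members were taken by gene symbol, 20 for cytosolic enzymes and 16 for mitochondrial enzymes, from 58575 genes with a row in the count table. The cells were 201B7, an established human iPSC line reprogrammed from skin fibroblasts, so that every library came from the same line and no other line was sampled. RNA-Seq was made on 3 libraries per condition, 12 in all, from poly(A) RNA of cells harvested on Day 5. Cond 1 (control) was kept in StemFit, a medium that maintains pluripotency. Cond 2 (Low nutrient) received StemFit that had been heated at 56 °C for 30 min. Cond 3 (Differentiation) received DMEM with 10% fetal bovine serum, nonessential amino acids and GlutaMax. By the study's account, the heated medium of Cond 2 was given from an earlier day than the serum medium of Cond 3. Cond 4 (labelled Physical stimulas) was pipetted 20 times at passaging and then kept as Cond 1. The labels do not say whether the libraries of a condition came from separate cultures. The study's methods describe the whole arrangement as carried out in triplicate, while its results call the replicates technical. The p-values below therefore measure only the spread between these libraries, which may be technical.

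Aminoacyl-tRNA synthetases join each amino acid to its tRNA and so supply the ribosome. Human cells hold one set for the cytosol and another, also encoded in the nucleus, for the ribosomes of mitochondria. GARS and KARS encode the enzymes of both places, and EPRS carries glutamyl and prolyl activities in one protein. Several cytosolic enzymes are bound in the multisynthetase complex on the scaffold proteins AIMP1, AIMP2 and EEF1E1, and the others are free. The enzymes also fall into class I and class II by the fold of their catalytic domain. ATF4, a transcription factor whose translation rises when amino acids are short or proteins misfold, acts on many genes of amino acid supply, several cytosolic synthetase genes among them, through C/EBP-ATF response elements.

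The promoters of the members were searched for the core of that element, and the matches are shown because ATF4 is known to act on synthetase genes. The core was held in at least 1 entry by 7 of the 16 cytosolic members with an entry and by 1 of 14 mitochondrial members. This description was not tested. Promoters were the 250 bases before and 50 bases after each RefSeq gene start on GRCh38.p14, and 30 of the 36 members had an entry. The motif was TGATGNAA, read on both strands, and 4.46% of all 27305 genes with an entry hold it. The 30 bases around each match follow, on the strand of the gene, with the motif or its reverse complement in capitals.
AARS (chr16:70289675-70289704, minus strand): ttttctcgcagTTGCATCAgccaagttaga
CARS (chr11:3057407-3057436, minus strand): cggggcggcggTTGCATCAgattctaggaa
GARS (chr7:30594834-30594863, plus strand): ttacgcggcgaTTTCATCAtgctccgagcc
IARS (chr9:92293692-92293721, minus strand): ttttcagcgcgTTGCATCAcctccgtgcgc
MARS (chr12:57488053-57488082, plus strand): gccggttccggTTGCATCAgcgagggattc
NARS (chr18:57621804-57621833, minus strand): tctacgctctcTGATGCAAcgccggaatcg
TARS (chr5:33440956-33440985, plus strand): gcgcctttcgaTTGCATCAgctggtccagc
YARS2 (chr12:32756076-32756105, minus strand): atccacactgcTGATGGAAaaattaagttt
Of the 7 cytosolic matches, 6 are TGATGCAA, a form singled out after the matches were seen, which 1.08% of all genes with an entry hold. The matches of CARS, GARS, IARS, MARS, NARS and TARS lie close to the RefSeq start of the entry that holds them. They run from 33 bases before that start in GARS (first base at -33) to base 15 after it in NARS. CARS, GARS and TARS have 2 entries each, and only 1 of the 2 holds a match. In AARS and YARS2 the first base lies at -187 and -197. These distances depend on the annotation, since within the GENCODE gene bounds used below for other coordinates all matches but that of YARS2, AARS included, lie inside the gene. A match describes these letters only, and binding was not measured.

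The libraries held 16441148 to 21871503 counts on genes. Replicates of a condition differed by more than sampling noise in every pair, with a chi-square per gene of 4.18 to 10.2. All 10 pluripotent stem cell markers examined were detected at a mean of at least 1 TPM (the relative transcript abundance, scaled for gene length and library size), with sums of 8180 to 8500 TPM in Cond 1, 7060 to 8130 in Cond 2 and 8520 to 9250 in Cond 3. Of these 10 markers, 3 fell in Cond 3 (NANOG, TDGF1 and L1TD1) and 5 rose (SOX2, LIN28A, DNMT3B, SALL4 and ZFP42). The log2 fold changes ran from -2.16 (NANOG) to 0.46 (ZFP42), with a median of 0.12. In Cond 2, 5 fell (NANOG, TDGF1, L1TD1, PODXL and TERF1), 3 of them by more than 2-fold. Another 3 rose there (SOX2, LIN28A and SALL4), and the 10 ran from -1.50 to 0.44, with a median of -0.24. Of all genes tested, 18.8% fell and 19.5% rose in Cond 3, and 10.1% and 10.8% in Cond 2. The summed level of 10 fibroblast markers was 425 to 457 TPM in Cond 1, 267 to 315 in Cond 2, 590 to 627 in Cond 3 and 385 to 409 in Cond 4, with DCN, LUM, COL3A1, PDGFRA and POSTN under 1 TPM on average and no gene at 0 in all libraries. The fibroblast markers did not move together. Of the 8 tested, THY1 fell in Cond 3 by more than 2-fold, and COL1A1, COL1A2, PDGFRA and POSTN rose. In Cond 2, COL1A1, COL1A2 and THY1 fell. The summed level of 6 neuroectoderm markers was 346 to 402 TPM in Cond 1, 767 to 1090 in Cond 2 and 518 to 546 in Cond 3. Mesendoderm markers summed to at most 4.72 TPM and blood markers to at most 0.954 TPM in any library, with FOXA2 and PTPRC at 0. Of the 2 mesendoderm markers tested, TBXT was called higher in Cond 3, though it averaged under 1 TPM. These sums moved with the conditions, and their part in the results below was not tested. In these bulk samples, fewer cells of a type and less RNA per cell cannot be told apart.

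Levels are given as TPM. Differences were tested on the counts with edgeR, in one fit over the 12 libraries and 17747 genes, and a gene was called when its Benjamini-Hochberg adjusted p was under 0.05. Log2 fold changes are given with their standard errors (SE). Of the 36 members, 33 could be tested, 19 cytosolic and 14 mitochondrial. VARS and VARS2 are given apart at the end, and SARS2, for mitochondrial seryl-tRNA synthetase, had no read in any library.

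The summed level of the cytosolic synthetases was lower in Cond 3 than in Cond 1, while that of the mitochondrial ones overlapped. The 19 cytosolic genes summed to 4059 ± 21.6 TPM in Cond 1 and 2850 ± 12 TPM in Cond 3 (SD, n = 3 each), or 70.2% of the level of Cond 1. The 15 mitochondrial genes summed to 629 ± 22.7 TPM and 625 ± 3.79 TPM (SD, n = 3), or 99.4%. The cytosolic sum ranged from 4035 to 4077 TPM over the Cond 1 libraries and from 2838 to 2862 TPM over those of Cond 3, without overlap, while the mitochondrial ranges, 603 to 646 and 622 to 629 TPM, overlapped. The mean log2 level (counts scaled to library size) of the cytosolic genes minus that of the mitochondrial genes was 2.30, 2.34 and 2.37 in the Cond 1 libraries and 1.94, 1.94 and 1.93 in those of Cond 3, a change of -0.40 that gives each gene the same weight. The ratio of the sums was 6.31 to 6.74 in Cond 1 and 4.53 to 4.6 in Cond 3. Cond 2 had a cytosolic sum of 3840 to 4580 TPM, the widest range of the 4 conditions, and a ratio of 6.23 to 6.8, and Cond 4 lay at 3925 to 4306 TPM and 6.28 to 7.01, so that both overlapped Cond 1. The members were chosen with earlier results of these data known, and no test was made on the sums.

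**Figure D1:**
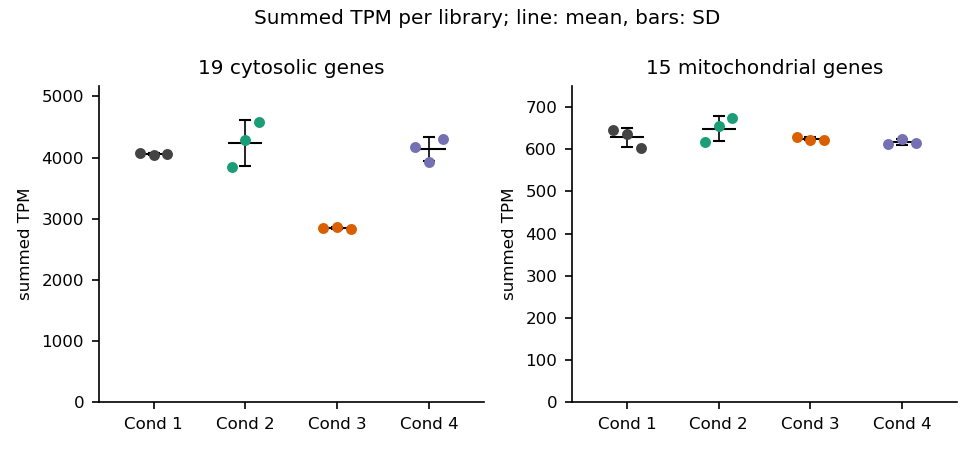
Summed TPM of the 19 cytosolic (left) and 15 mitochondrial (right) synthetase genes in each of the 12 libraries, by condition, with axes from 0; points are libraries, lines the mean and bars the SD of 3 libraries. The 3 cytosolic sums of Cond 3 lie between 2838 and 2862 TPM, under those of every other library, while the mitochondrial sums overlap.

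In Cond 3 against Cond 1, 13 of 19 cytosolic genes fell and none rose, or 68.4%, where 18.8% of all genes tested fell. The median log2 fold change of the 19 was -0.45, and that of all genes tested -0.01. In 12 of the 19, all 3 Cond 3 libraries lay under all 3 Cond 1 libraries in TPM, as in 22% of all genes tested. AARS and GARS fell by more than 2-fold, as did 3.31% of all genes, and no member rose by as much, as 4.85% of all genes did. Without CARS, which is poorly counted, 12 of 18 fell. Of the 14 mitochondrial genes, 3 fell and 2 rose, or 35.7% called against 38.4% of all genes tested (19.5% rose), and the median was -0.12. A set's members are not replicates of a condition, and the difference between the compartments was not tested.

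**Figure D2:**
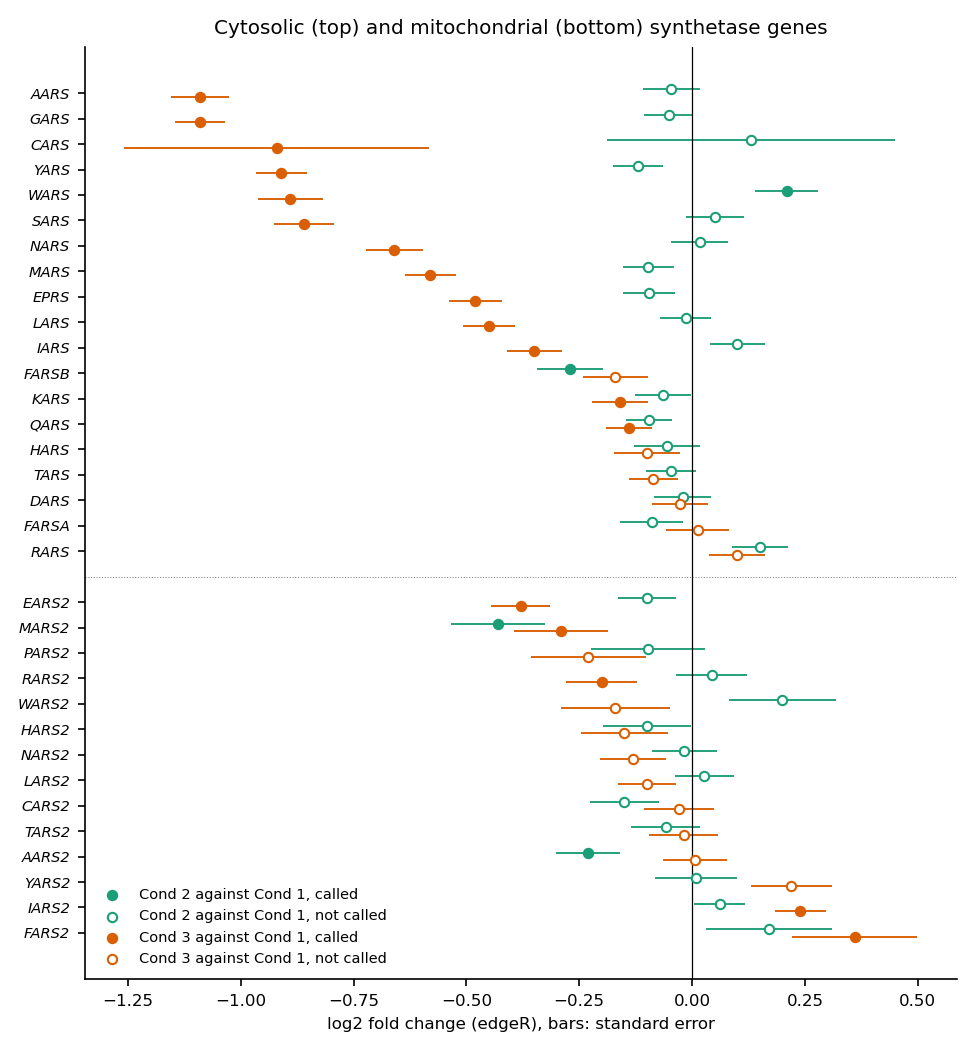
Log2 fold change from edgeR, with its standard error, for 19 cytosolic (top) and 14 mitochondrial (bottom) synthetase genes in Cond 2 and Cond 3 against Cond 1; filled points were called. In Cond 3 AARS and GARS lie at -1.09 and the cytosolic genes trail back to RARS at 0.10, whereas the mitochondrial genes lie between -0.38 and 0.36 on both sides of 0.

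The clearest falls were those of GARS, AARS and YARS, the glycyl-, alanyl- and tyrosyl-tRNA synthetases. GARS (chr7:30580533-30634033, GRCh38) was at 428, 417 and 445 TPM in Cond 1 and at 208, 203 and 205 TPM in Cond 3. The Cond 3 libraries lay close together, well under those of Cond 1, at 47.8% of its mean, a log2 fold change of -1.09 (SE 0.0551, edgeR, adjusted p = 6.12e-13). AARS (chr16:70251983-70289707), the highest of all members in every condition, was at 562, 584 and 591 TPM in Cond 1 and at 273, 280 and 280 TPM in Cond 3. Its fold change was -1.09 (SE 0.0642, edgeR, adjusted p = 8.93e-12), with no overlap between the groups. YARS (chr1:32775237-32818031) went from 207, 213 and 205 TPM to 114, 110 and 114 TPM, a log2 fold change of -0.91 (SE 0.0568, edgeR, adjusted p = 2.08e-11). On TPM, exact permutation (two-sided) gave p = 0.1 for each of these genes, the smallest value that 3 libraries against 3 allow.

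SARS, WARS, NARS and MARS, the enzymes of serine, tryptophan, asparagine and methionine, followed. SARS (chr1:109213918-109238182) was at 241 to 279 TPM in Cond 1 and at 147, 147 and 149 TPM in Cond 3, a log2 fold change of -0.86 (SE 0.0658). WARS (chr14:100333790-100376805) was at 144, 126 and 142 TPM in Cond 1 and at 80.3, 73.2 and 73.2 TPM in Cond 3, a log2 fold change of -0.89 (SE 0.0713). The Cond 3 means were 56.4% and 55% of those of Cond 1, and neither gene overlapped. NARS (chr18:57600656-57622213) fell by 0.66 on the log2 scale (SE 0.0634), from 309 to 340 TPM down to 202 to 223 TPM. MARS (chr12:57475445-57517569) fell by 0.58 (SE 0.0572), from 255 to 284 TPM down to 180 to 188 TPM. Exons of MARS overlap those of DDIT3 on the opposite strand, and DDIT3 itself fell from 49.6 to 7.3 TPM on average. The strand setting of the counting is not given in the sources used here, so reads from the shared stretch cannot be assigned to either gene.

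**Figure D3:**
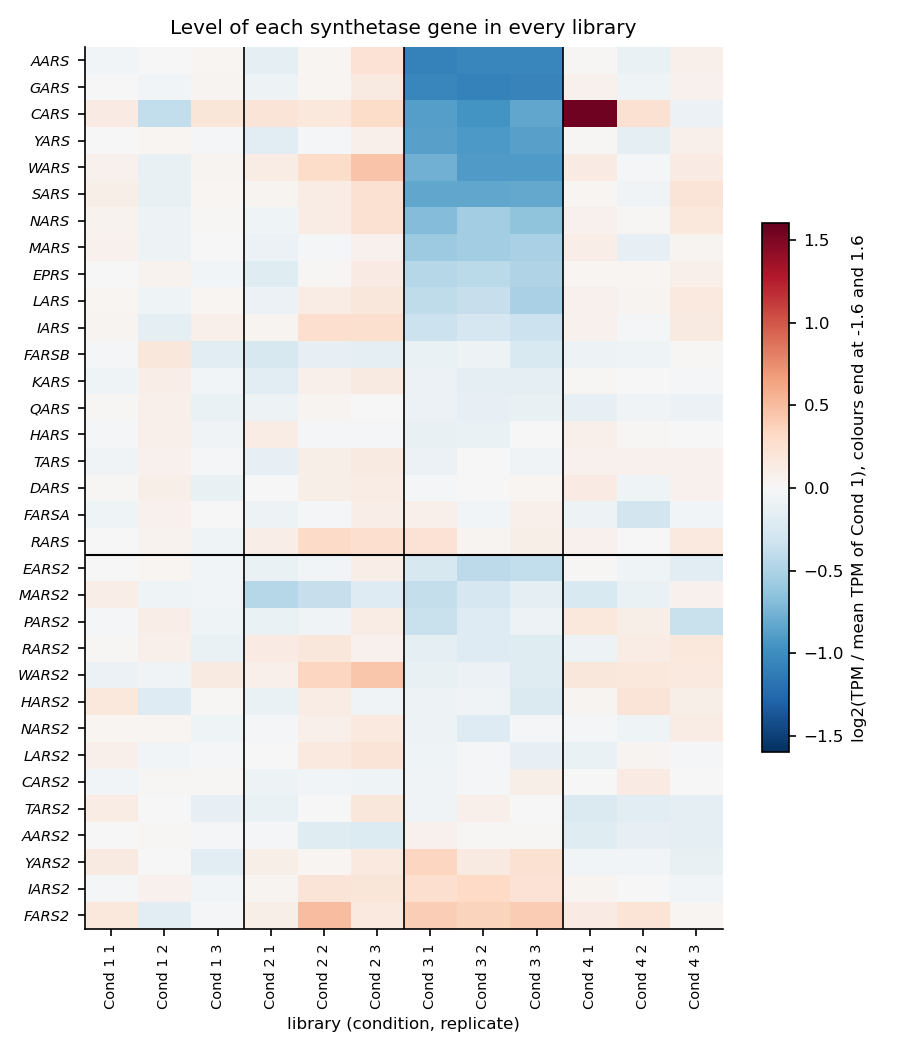
Log2 ratio of TPM in each of 12 libraries (columns) to the mean of Cond 1 for the 33 members tested (rows, cytosolic above the line), in the order of their fold change in Cond 3. The top rows are blue in all 3 libraries of Cond 3, and the single dark red cell is CARS in Cond 4 replicate 1, at 3.43 TPM.

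Of the 8 members bound in the multisynthetase complex, 6 fell in Cond 3, with a median of -0.25 over the 8, and of the 11 free members 7 fell, with a median of -0.86. The complex-bound members that fell were MARS and 5 others by less. EPRS fell by 0.48 on the log2 scale (SE 0.0577), LARS, for leucine, by 0.45 (SE 0.0571) and IARS, for isoleucine, by 0.35 (SE 0.0611). Their Cond 3 libraries lay at 181 to 187, 146 to 162 and 200 to 211 TPM, and their Cond 1 libraries at 244 to 261, 199 to 214 and 230 to 269 TPM, without overlap. KARS, for lysine, was at 187, 211 and 190 TPM in Cond 1 and 184, 176 and 177 TPM in Cond 3, a log2 fold change of -0.16 (edgeR, adjusted p = 0.0495). QARS, for glutamine, was at 223, 234 and 206 TPM and 207, 201 and 204 TPM, a log2 fold change of -0.14 (edgeR, adjusted p = 0.0307), and its libraries overlapped. By class, 8 of 9 class I genes fell, counting EPRS here, with a median of -0.48, and 5 of 10 class II genes, with a median of -0.16. Each of these shares stands against 18.8% of all genes that fell, and the differences between the subgroups were not tested.

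The falls of AARS, GARS, YARS, SARS, WARS, NARS, MARS, EPRS, LARS and IARS were called in all 6 fits that left out 1 library of Cond 1 or Cond 3 and in the 8 other fits listed under the processing. The calls of KARS, QARS and CARS were each kept in 1 of the 6 leave-one-out fits. KARS was not called without Cond 1 replicate 2 or 3 or without any single Cond 3 library (edgeR, adjusted p up to 0.222), nor in 5 of the 8 other fits (upper-quartile factors, DESeq2 size factors, DESeq2 and limma at both pseudocounts, adjusted p up to 0.263). QARS was not called without Cond 1 replicate 1 or 2 or any single Cond 3 library (edgeR, adjusted p up to 0.131), nor with upper-quartile factors, no filter or limma at both pseudocounts (adjusted p up to 0.183). CARS, for cysteine, held 33 to 78 reads in these 6 libraries. It had a log2 fold change of -0.92 (SE 0.338, edgeR, adjusted p = 0.0349), and was not called without Cond 1 replicate 1 or 3 or any single Cond 3 library (adjusted p up to 0.115). With 1 library left out, 10 to 12 cytosolic genes fell.

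The other 6 cytosolic genes were not called in Cond 3. TARS, for threonine, had 264, 290 and 272 TPM in Cond 1 and 257, 273 and 264 TPM in Cond 3, a log2 fold change of -0.09 (SE 0.0549). Among the 12 cytosolic genes with the highest mean TPM in Cond 1 it was the only one not called, and of the 7 lowest, WARS and CARS were called. This cut was not planned, it falls just after KARS, whose call was unstable, and the relation of level to call was not tested. TARS went from place 4 among the 19 cytosolic genes in Cond 1 to place 2 in Cond 3, behind AARS, while SARS went from place 6 to place 11 and YARS from 10 to 14. The aspartyl, arginyl, histidyl and both phenylalanyl genes had log2 fold changes of -0.03 (DARS, SE 0.0629), 0.10 (RARS, SE 0.0621), -0.10 (HARS, SE 0.0738), 0.01 (FARSA, SE 0.0688) and -0.17 (FARSB, SE 0.0727). Their libraries of the 2 conditions overlapped in all 5 genes. FARSB was called lower when Cond 1 replicate 3 was left out (edgeR, adjusted p = 0.018). FARSA and FARSB encode the 2 subunits of one enzyme.

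As a description with no test, of the 11 cytosolic genes with a promoter entry that fell in Cond 3, 6 hold the motif printed above (AARS, CARS, GARS, IARS, MARS and NARS), and of the 5 with an entry that were not called, TARS alone does. SARS, WARS, EPRS, KARS and QARS fell and hold no match in this window. YARS and LARS also fell, but have no promoter entry and are left out of these counts. The calls of CARS, KARS and QARS were unstable, as given above. The share of all genes that fell and hold the motif was not computed. The members and the motif were chosen with earlier results of these data known.

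Among the mitochondrial genes, EARS2, IARS2 and MARS2, for glutamate, isoleucine and methionine, had the smallest adjusted p in Cond 3. EARS2 (chr16:23520754-23557731) was at 70.7, 71.5 and 68.3 TPM in Cond 1 and at 58.6, 52.7 and 53.4 TPM in Cond 3. It fell to 78.2% of Cond 1, by 0.38 on the log2 scale (SE 0.0653, edgeR, adjusted p = 6.60e-05). IARS2 (chr1:220094132-220148041), the highest mitochondrial member, rose from 116, 124 and 114 TPM to 142, 147 and 139 TPM, a log2 fold change of 0.24 (SE 0.0558, edgeR, adjusted p = 0.0014). The calls of both genes were kept in all 6 leave-one-out fits and the 8 others. MARS2 (chr2:197705369-197708395) was at 34.5, 30.5 and 31.1 TPM in Cond 1 and at 24.5, 26.7 and 28.9 TPM in Cond 3, a log2 fold change of -0.29 (SE 0.104, edgeR, adjusted p = 0.0312).

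RARS2, for arginine, was at 57.3 to 65.2 TPM and then 53.6 to 56.1 TPM, a log2 fold change of -0.20 (edgeR, adjusted p = 0.0441). FARS2, for phenylalanine and the lowest of the mitochondrial genes with reads, rose from 6.13 to 7.73 TPM up to 8.8 to 9.08 TPM, a log2 fold change of 0.36 (edgeR, adjusted p = 0.0463). These last calls were less stable. MARS2 was not called without Cond 1 replicate 1 or 3 or Cond 3 replicate 1 or 2 (edgeR, adjusted p up to 0.145). RARS2 was not called without Cond 1 replicate 1 or 2 or any single Cond 3 library (up to 0.146), nor FARS2 without Cond 1 replicate 2 or 3 or any single Cond 3 library (up to 0.165). The other 9 mitochondrial genes, from PARS2 at -0.23 (SE 0.128) to YARS2, for tyrosine, at 0.22 (SE 0.0899), were not called. YARS2 was called higher without Cond 1 replicate 1 or Cond 3 replicate 2 (edgeR, adjusted p down to 0.0345). The libraries of PARS2, WARS2 and YARS2 did not overlap between the conditions, while 26.6% of all genes were higher in all 3 Cond 3 libraries and 22% lower.

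**Figure D4:**
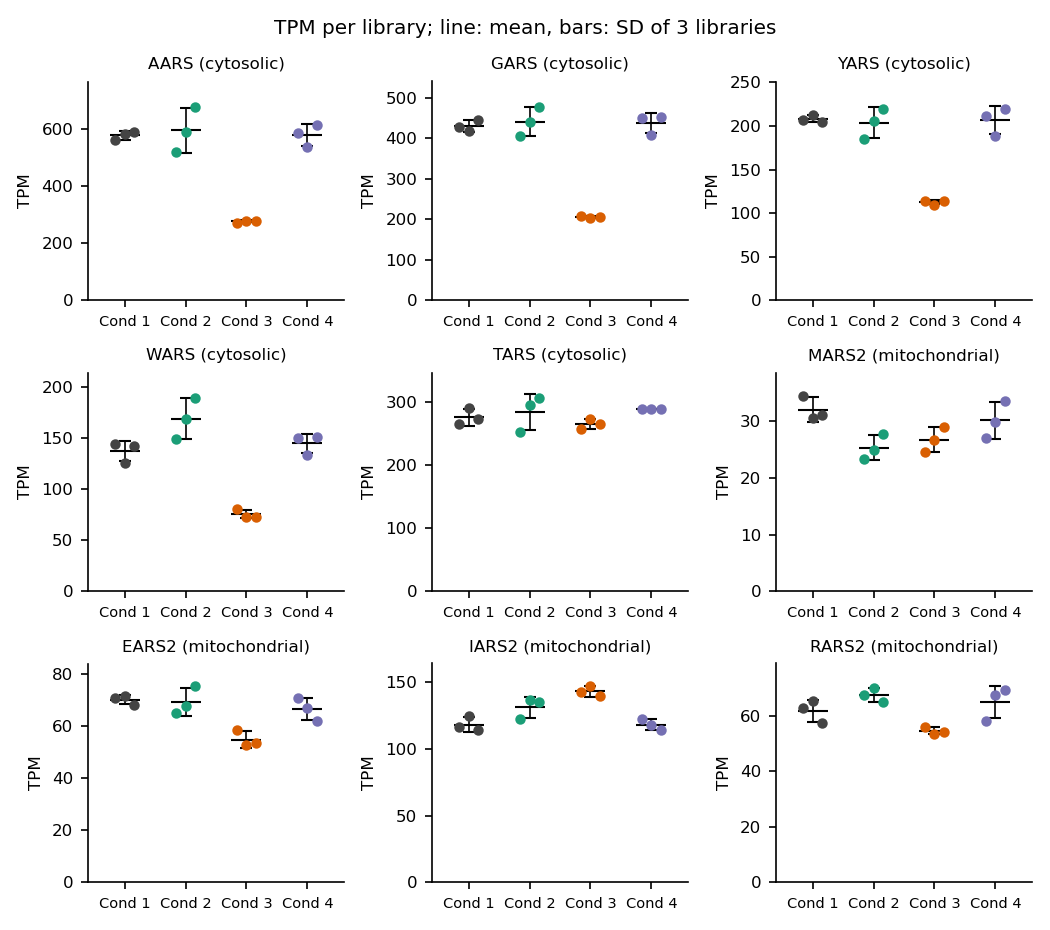
TPM of 9 members in each library of the 4 conditions, with axes from 0; lines are means and bars the SD of 3 libraries. AARS, GARS, YARS and WARS are lowest in Cond 3, TARS stays between 252 and 305 TPM in all libraries, IARS2 is highest in Cond 3 and MARS2 is lower in Cond 2 and Cond 3 than in Cond 1.

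The enzymes of one amino acid can be set side by side. Over 15 cytosolic and mitochondrial pairs, the TPM ratio of cytosolic to mitochondrial gene was lower in all 3 Cond 3 libraries than in all 3 Cond 1 libraries in 11 pairs and higher in 1. EPRS and FARS2 each enter more than 1 pair, so the pairs are not separate. Both FARS2 pairs were lower, although FARSA and FARSB were not called. The share over other gene pairs was not computed, so these counts have no background and were not tested. The log2 ratio of YARS to YARS2 changed by -1.13, and that of AARS to AARS2 by -1.09, from 3.62, 3.65 and 3.70 in Cond 1 to 2.51, 2.59 and 2.59 in Cond 3. For IARS and IARS2 the change was -0.59, with the cytosolic gene lower and the mitochondrial one higher. RARS to RARS2 was the pair that was higher, by 0.30. The pair of HARS and HARS2, whose exons overlap on opposite strands, was the smallest, at 0.04, and its libraries overlapped. In Cond 2 the ratio was lower in 1 pair and higher in 2, and in Cond 4 higher in 1.

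Genes that work beside the synthetases were read in the same comparison. Of the 3 scaffold genes of the complex, AIMP1 fell by 0.34 on the log2 scale (edgeR, adjusted p = 0.00183), and AIMP2 (-0.11) and EEF1E1 (0.15) were not called. Of 12 further genes for charged tRNAs, 4 fell, against 18.8% of all genes. XPOT, the exporter of tRNA from the nucleus, went from 218, 199 and 222 TPM to 127, 131 and 124 TPM, a log2 fold change of -0.77 (SE 0.0618, edgeR, adjusted p = 1.45e-09). DTD1, which removes D-amino acids from tRNA, was at 16.9, 21.2 and 16.7 TPM and at 12.4, 12.7 and 13.9 TPM, without overlap, and fell by 0.52 (edgeR, adjusted p = 0.000406).

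Of the cytosolic elongation factors tested, EEF1A1, which brings charged tRNA to the ribosome, fell by 0.30 (edgeR, adjusted p = 1.36e-05), and EEF2 (0.09), EEF1B2 (0.22) and EEF1D (0.11) were not called. EEF1B2 and EEF1D averaged under 7 TPM, EEF1D at only 0.166 to 0.327 TPM, and EEF1G was at 0 in all libraries but 1 of Cond 4. The absence of a call in EEF1B2 and EEF1D therefore says little, and why these levels are low was not tested. TUFM (-0.06), GFM1 (-0.15) and GFM2 (-0.18), the mitochondrial factors tested, were not called, and TSFM had too few reads. Of 72 mitochondrial ribosomal protein genes, 19 fell and 6 rose, with a median of -0.11. That is 34.7% called, close to the 38.4% of all genes, with 26.4% lower and 8.33% higher against 18.8% and 19.5%. MRPS10 (-0.56), MRPL24 (-0.80) and MRPS23 (-0.36) had the smallest adjusted p, between 7.40e-07 and 0.000238 (edgeR).

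Most genes of the ATF4 and amino acid response fell in Cond 3. Of 23 tested, 22 fell, or 95.7% against 18.8% of all genes, 18 of them by more than 2-fold, as 3.31% of all genes did, with a median of -1.51. ALDH18A1, for proline synthesis, was not called (0.04), and the difference of this list from the synthetases was not tested. STC2, a secreted glycoprotein, fell from 173, 167 and 183 TPM to 45.4, 46.9 and 48.4 TPM, by 1.92 (edgeR, adjusted p = 1.38e-15). CHAC1, which degrades glutathione, fell from 346, 331 and 338 TPM to 27.4, 48.2 and 39.3 TPM, by 3.18 and SLC7A11, the cystine transporter, by 2.05 (edgeR, adjusted p = 6.73e-15 and 2.43e-14). ATF4 had no row in the count table. Its level was 664, 646 and 625 TPM in Cond 1 and 551, 533 and 518 TPM in Cond 3, without overlap, and limma on log2(TPM + 1) gave a change of -0.27 (SE 0.0524, adjusted p = 0.00226). The share of the list that fell was the same in every fit with 1 library left out, 22 of 23.

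**Figure D5:**
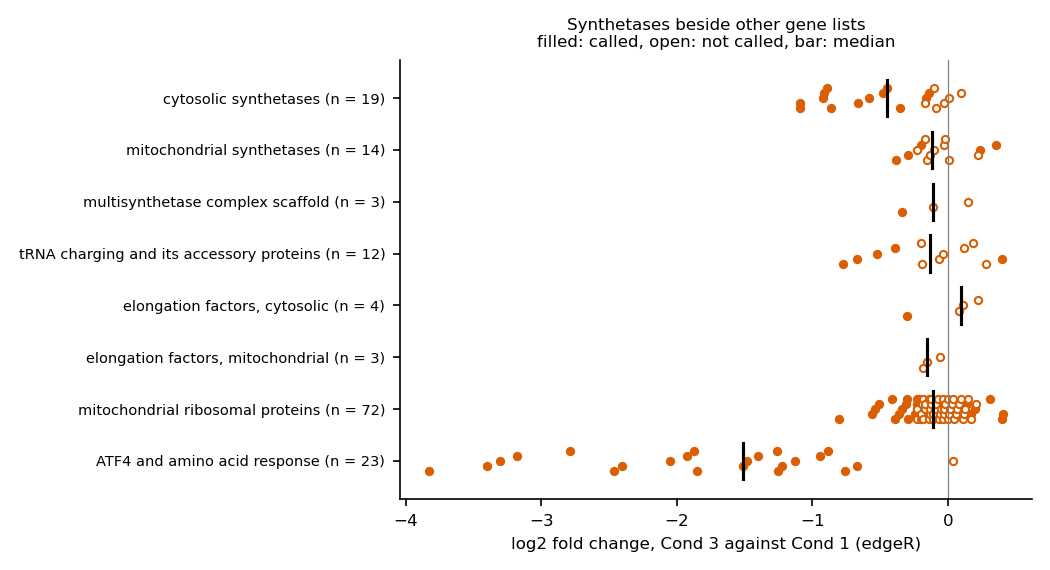
Log2 fold change in Cond 3 against Cond 1 (edgeR) of each gene tested in the cytosolic and mitochondrial synthetases and in 6 further lists; filled points were called, and bars are medians. The medians lie at -0.45 for cytosolic and -0.12 for mitochondrial synthetases, -0.11 for mitochondrial ribosomal proteins and -1.51 for the ATF4 and amino acid response.

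In Cond 2 the synthetases moved little. Of 33 members, 4 were called, 3 lower and 1 higher, or 12.1% against 20.9% of all genes tested (10.1% lower and 10.8% higher). None passed a 2-fold change, as 2.5% of all genes did downward and 1.84% upward. In TPM, 2 members were lower in all 3 Cond 2 libraries and 2 higher, where 11.2% and 24.4% of all genes were. WARS rose by 0.21 on the log2 scale (SE 0.0699, edgeR, adjusted p = 0.0377), from 144, 126 and 142 TPM in Cond 1 to 149, 169 and 189 TPM. FARSB fell by 0.27 (SE 0.073, edgeR, adjusted p = 0.0107), with 51.7, 60.2 and 46.9 TPM in Cond 1 and 44.4, 48.2 and 47.5 TPM in Cond 2, which overlapped. MARS2 fell by 0.43 (SE 0.105, edgeR, adjusted p = 0.0046), to 23.3, 24.9 and 27.7 TPM, and AARS2, for alanine, by 0.23 (SE 0.0712, edgeR, adjusted p = 0.0216), from 45.7, 46.5 and 45.4 TPM to 44.8, 40 and 39.3 TPM. The fall of MARS2 was called in every fit.

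The other Cond 2 calls depended on single libraries. WARS was not called without Cond 1 replicate 1 or 2 or Cond 2 replicate 2 or 3 (edgeR, adjusted p up to 0.234). AARS2 was not called without Cond 1 replicate 2 or 3 or Cond 2 replicate 2 or 3 (up to 0.1), and FARSB not without Cond 1 replicate 2 (0.0978). EPRS and YARS were called lower when Cond 2 replicate 3 was left out (edgeR, adjusted p = 0.038 and 0.0413). RARS, next among the cytosolic genes, was at 116, 120 and 110 TPM in Cond 1 and at 124, 143 and 139 TPM in Cond 2 (edgeR, adjusted p = 0.104). CARS2, next among the mitochondrial ones, was at 15.4, 16.2 and 16.2 TPM and at 15.1, 15.5 and 15.2 TPM (edgeR, adjusted p = 0.188). In the ATF4 and amino acid response list, 3 genes rose in Cond 2 (ATF3, DDIT3 and PSAT1) and 3 fell (VLDLR, SHMT2 and ALDH18A1) of 23, or 13% each way, close to the 10.8% and 10.1% of all genes. ATF4 itself was at 682, 688 and 667 TPM, with a change of 0.075 (limma on log2(TPM + 1), adjusted p = 0.327). The median change over all genes in this same limma setting was 0.085, while it was 0.000 in the edgeR fit. TPM values of Cond 2 and Cond 1 therefore carry a small offset beside the edgeR fold changes.

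Cond 3 and Cond 2 were also compared directly. By the study's account the altered medium was given for longer in Cond 2, so medium and length of exposure cannot be told apart here. In Cond 3, 11 of 19 cytosolic genes were lower than in Cond 2, where 19.2% of all genes were, and none was higher. In TPM, 12 of the 19 were lower in all 3 Cond 3 libraries than in all 3 of Cond 2, against 27.3% of all genes. The 10 genes named above as called in all fits against Cond 1 were called in all fits here as well, but both comparisons use the same Cond 3 libraries. WARS, the only member called in opposite directions in Cond 2 and Cond 3 against Cond 1, differed by -1.10 (SE 0.0713, edgeR, adjusted p = 4.85e-11). AARS, GARS and CARS were also more than 2-fold lower, which makes 4 members where 3.01% of all genes were, and no member was as much higher, as 5.76% were. Of the mitochondrial genes, EARS2, RARS2 and WARS2 were lower and AARS2 and IARS2 higher, 5 of 14, where 38.2% of all genes were called (19% higher). Without overlap in TPM, 4 mitochondrial genes were lower and 2 higher, where 20.3% of all genes were higher. RARS2 was not called without Cond 2 replicate 2 or Cond 3 replicate 2 (edgeR, adjusted p up to 0.0561), WARS2 without Cond 2 replicate 2 or 3 or Cond 3 replicate 3 (up to 0.0867), AARS2 without Cond 2 replicate 2 or 3 (up to 0.0593), IARS2 without Cond 2 replicate 1 or Cond 3 replicate 2 (up to 0.06), and CARS without Cond 3 replicate 2 (0.0511). KARS was called lower without Cond 2 replicate 1 (0.0273).

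In Cond 4 no member was called by edgeR, DESeq2 or limma, and 0.0282% of all genes were called by edgeR. At an unadjusted p under 0.05 there were 5 members in edgeR and in DESeq2 and 1 in limma, and 1 to 4 in edgeR with 1 library left out. The share of all genes at this threshold was not computed, so these counts have no background. AARS was at 587, 540 and 615 TPM and GARS at 450, 409 and 452 TPM, overlapping Cond 1. The median log2 fold change was 0.03 over the 19 cytosolic genes and -0.02 over the 14 mitochondrial ones. In TPM, 2 members (LARS and WARS2) were higher in all 3 Cond 4 libraries than in all of Cond 1, and AARS2 and TARS2 were lower, where 6.75% and 5.12% of all genes were. The widest value was that of CARS, 0.72 (SE 0.313, edgeR, adjusted p = 0.79), which had 163 reads in Cond 4 replicate 1 and 71 and 59 in the other two libraries.

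VARS and VARS2, the cytosolic and mitochondrial valyl-tRNA synthetases, lie in the MHC region at chr6:31777518-31795752 and chr6:30914205-30926459. VARS was at 0.309, 0.108 and 0.029 TPM in Cond 1, at 0.168, 0.119 and 0.176 TPM in Cond 2, at 0.25, 0.311 and 0.16 TPM in Cond 3 and at 0.18, 0.133 and 0.126 TPM in Cond 4, from 1 to 10 reads per library. VARS2 was at 0.0202 to 0.0859 TPM in Cond 1, 0.0207 to 0.0468 TPM in Cond 2, 0.0193 to 0.0223 TPM in Cond 3 and 0.0219 to 0.025 TPM in Cond 4, from 1 to 4 reads. Every condition overlapped Cond 1 in both genes, no difference in either gene was detectable at this depth, and neither was tested. Of all 31-base words in their transcripts, 85.2% and 84.7% occur also on the alternate haplotype sequences of GRCh38, as do 85.9% of those of CARS, which lies at chr11:3000922-3057613. In the other 33 members the share was at most 9.11%. How reads with several matches were counted is not given in the sources used here, so these levels may not reflect transcript abundance. SARS2 shares exons with a second annotated gene on the same strand. In all, exons of 23 of 36 members overlap those of another gene, on the same strand in 8.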

How the data were processed

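Per the labels and methods, poly(A) RNA of 201B7 cells was sequenced from strand-directional libraries. Per the submitters' processing notes, bcl2fastq 2.20.0.422, cutadapt 4.1, fastp 0.20.1, HISAT2 2.1.0 and featureCounts were used with GRCh38. The authors deposited whole-number read counts per gene, without normalization, and TPM values, which equal these counts per gene length scaled to a fixed total per library (largest relative deviation 1.79e-14). Of 58580 count lines, 5 held no whole gene row and were left out, and 2042 genes of the TPM table had no count row. The multi-mapping and strand settings are not given in the sources used here.

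After TMM normalization and filterByExpr, all 4 conditions entered 1 edgeR quasi-likelihood fit (edgeR 4.0.16, R 4.3.3), with Benjamini-Hochberg adjustment over 17747 genes. Samples were grouped by their titles. Alternatives were DESeq2 1.42.0, upper-quartile or DESeq2 size factors, no filter, limma 3.58.1 on log2(TPM + 1) or log2(TPM + 0.1) for genes of at least 1 TPM in all libraries, the 6 libraries alone, a replicate block, each library left out, and a fold change above 2. Single genes were also compared by exact permutation of TPM. The main edgeR fit, DESeq2 and limma with a pseudocount of 1 were also run on simulated data, and the other alternatives and the permutation were not. Depth was 16441148 to 21871503 counts per library. CARS, VARS and VARS2 had few reads at this depth, for a reason that was not tested.

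The members and lists, with the rule for named genes, were chosen with earlier results of these data known. All members could be named, with values in every library for the 3 cytosolic and 3 mitochondrial genes of smallest adjusted p in Cond 2 and in Cond 3, those called in Cond 4 or in opposite directions, and VARS and VARS2. Of longer lists the 3 genes of smallest adjusted p were named, except 1 result that is not reported here. DDIT3 and the called stem cell, fibroblast and mesendoderm markers were named after their values were seen. Coordinates and exons came from GENCODE release 44, and promoters from RefSeq on GRCh38.p14.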

Additional observations from a re-analysis of the deposited data

How the results depend on the processing

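Counts of called genes were recomputed under each alternative. Requiring a fold change above 2 left 2 cytosolic genes lower in Cond 3 against Cond 1 and 4 in Cond 3 against Cond 2, and 0 in every other set, cytosolic or mitochondrial. In Cond 3 against Cond 1, no other alternative moved the count of 13 cytosolic falls by more than 1.5 times. With limma on log2(TPM + 1) or log2(TPM + 0.1), 1 mitochondrial gene fell in place of 3, and with no filter, with the 6 libraries alone or with the replicate block, 1 rose in place of 2. In Cond 3 against Cond 2, limma at both pseudocounts gave 1 mitochondrial gene higher in place of 2. In Cond 2, limma at both pseudocounts gave 0 cytosolic genes lower in place of 1, 1 mitochondrial gene lower in place of 2 and 1 higher in place of 0. Cytosolic genes higher in Cond 2, 1 in the edgeR fit, were 2 with limma on log2(TPM + 1) and 0 with log2(TPM + 0.1), upper-quartile factors or the 6 libraries alone, which also left 1 mitochondrial gene lower.

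With 1 library left out, 10 to 12 cytosolic genes were lower in Cond 3 against Cond 1 and also against Cond 2. Mitochondrial genes ranged from 1 to 2 lower and 1 to 3 higher in Cond 3 against Cond 1, and from 1 to 3 lower and 1 to 2 higher against Cond 2. In Cond 2 the ranges were 0 to 3 cytosolic genes lower, 0 to 1 higher and 1 to 2 mitochondrial genes lower. In Cond 3 against Cond 1 the sign of some uncalled genes near 0 turned, among the mitochondrial ones those of TARS2 (-0.08 to 0.04), CARS2 (-0.08 to 0.01) and AARS2 (-0.00 to 0.03), and among the cytosolic ones those of DARS and FARSA. DARS gave 0.00 (0.003) in limma at both pseudocounts and -0.079 to 0.020 with 1 library left out, above 0 without Cond 1 replicate 2. FARSA gave -0.030 to 0.048, below 0 without Cond 1 replicate 1 (-0.030), Cond 3 replicate 1 (-0.004) or Cond 3 replicate 3 (-0.010).

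Deviations of libraries with the same replicate number correlated from -0.0131 to 0.0379 over 18 pairs (median 0.0162). Those with different numbers correlated from -0.0693 to 0.0607 over 36 pairs (median -0.00533). All these correlations are small, and they cannot show whether the numbers pair the libraries. The replicate block moved 1 call, that of FARS2 in Cond 3 (0.35, edgeR, adjusted p = 0.0559). The change in Cond 3 of the cytosolic minus mitochondrial mean log2 level, -0.40, was -0.39 to -0.37 on the TPM scales and -0.38 without GARS and KARS. The values of CARS rest on 33 to 163 reads, and why they are few was not tested.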
